A study of Mus musculus with 10 samples.

Results

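Undifferentiated spermatogonia, the pool of male germ cells that holds the spermatogonial stem cells, are recognised by a small set of transcription factors. The 10 factors described here are Zbtb16, Sall4, Id4, Foxo1, Taf4b, Pax7, Pdx1, Eomes, Sox3 and Neurog3. They were found by symbol among the 21969 genes of an RNA-seq matrix of FPKM (mapped fragments scaled by transcript length and library size) in 10 libraries, and each symbol matched 1 row. All 10 passed the filter for low values, FPKM 1 or more in at least 2 libraries, which 15671 genes passed.

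All cells came from DBA/2 mice. Testis cells of adult animals were enriched with magnetic beads for the surface protein CD9 and read at week 0, then after 1, 2 and 3 weeks in a medium that held FGF2 (human, 10 ng/ml), GDNF (rat, 15 ng/ml) and 1% fetal bovine serum. The last group was GS cells, long-established cultures of spermatogonial stem cells of the same strain, kept in the same medium. Each of the 5 groups had 2 libraries. How many animals or GS cell lines were used, and whether feeder cells were present, is not stated in the labels. Nor do they say that the 2 libraries of a group are from different animals or dishes, so each p-value reflects only how far these libraries vary, which may be technical variation.

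These factors act at different points of a continuum. Zbtb16 (PLZF) is a zinc-finger repressor needed to keep the stem cell pool, and Sall4 is a zinc-finger factor that binds it. Id4 is a helix-loop-helix protein without a DNA-binding region that blocks E proteins and marks the most stem-like cells. Foxo1 is a forkhead factor held out of the nucleus by PI3K and AKT signalling, and Taf4b is a germ cell subunit of the general factor TFIID. Pax7, Pdx1 and Eomes, better known from muscle, pancreas and early embryo or lymphocytes, have been seen in small subsets of stem-like spermatogonia. Sox3 and Neurog3 belong to progenitors that are moving toward differentiation.

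The 10 libraries held 10.35 to 21.07 M reads (M, 1e6), as read from the steps of low FPKM values, and replicates correlated at r = 0.987 to 0.994 across genes, which are not independent replicates. The label of week 0 names stem cells, but the 6 spermatid markers (among them Prm2 and Tnp2) summed to 22220 and 23900 FPKM there, against 147 to 155 at week 1 and 6.06 to 10.2 in the other groups. The 5 Leydig cell markers summed to 1507 and 1749 FPKM at week 0 and to 81.3 or less afterwards. At week 1, 4 of the 5 were called lower than at week 0 by the limma test described below, as were 44% of all genes tested. Star was not, with 41.0 and 40.6 FPKM at week 0 and 55.1 and 62.7 at week 1. The 8 Sertoli cell markers summed to 463 and 464 at week 0, 271 and 272 at week 1, and 16.8 to 26.2 later. Clu alone had 368 and 373 FPKM at week 0 and 214 and 216 at week 1. At week 1, 7 of the 8 were called lower than at week 0, again beside 44% of all genes. The other, Sox9, rose from 2.60 and 2.94 FPKM to 28.4 and 28.3. The 6 fibroblast markers, collagens among them, peaked at week 1 with 2637 and 2750 FPKM, against 163 to 549 in the other groups, and the week 3 libraries differed from each other in them (163 and 401). In such bulk samples, fewer cells of a type and less RNA per cell cannot be told apart. The part of these shifts in the values below was not tested.

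**Figure D1:**
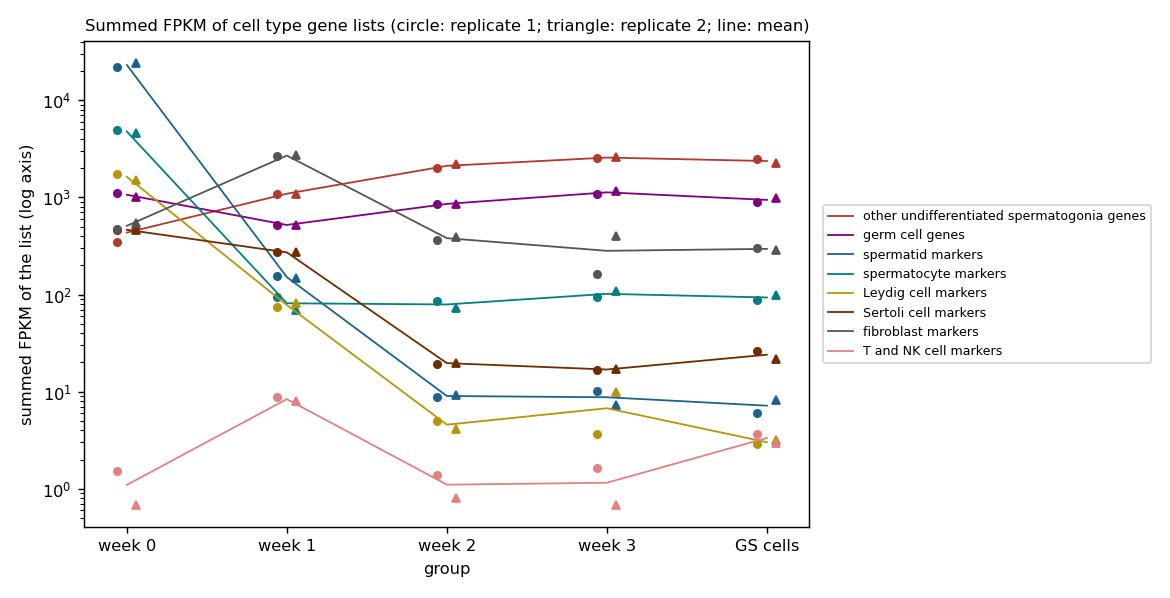
Summed FPKM (vertical log axis) of 8 gene lists in the 5 groups (horizontal axis); circles are replicate 1, triangles replicate 2, and lines join the means of 2 libraries. Spermatid markers fall from 22220 and 23900 at week 0 to 6.06 and 8.29 in GS cells, and fibroblast markers peak at week 1 with 2637 and 2750.

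The factors fell into a few patterns across the groups. Zbtb16, Foxo1, Sox3 and Neurog3 were highest at week 3, Sall4, Taf4b and Eomes at week 2, Pdx1 at week 1, and Pax7 and Id4 in GS cells. The highest group mean exceeded the lowest 17.8 times for Pax7, 12.5 times for Eomes, 10.1 times for Sox3 and 9.63 times for Zbtb16, but 1.55 times for Id4. The ratios of Pax7 and Eomes are loose, since their week 0 means were only 0.144 and 0.403 FPKM. A week 0 library held 1.9 to 11.1 reads of Pax7 and 5.0 to 18.5 of Eomes, depending on library and transcript model. No such ratio is given for Neurog3, whose lowest group rests on 1 library with a trace of reads and 1 at 0. FPKM is a value per transcript length, so levels can be set beside each other. Zbtb16 had the highest mean FPKM of the 10 at week 0, week 2, week 3 and in GS cells, and Sall4 at week 1. Pax7 was the lowest of the 10 at week 0 and week 2, Neurog3 at week 1 and in GS cells, and Pdx1 at week 3.

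**Figure D2:**
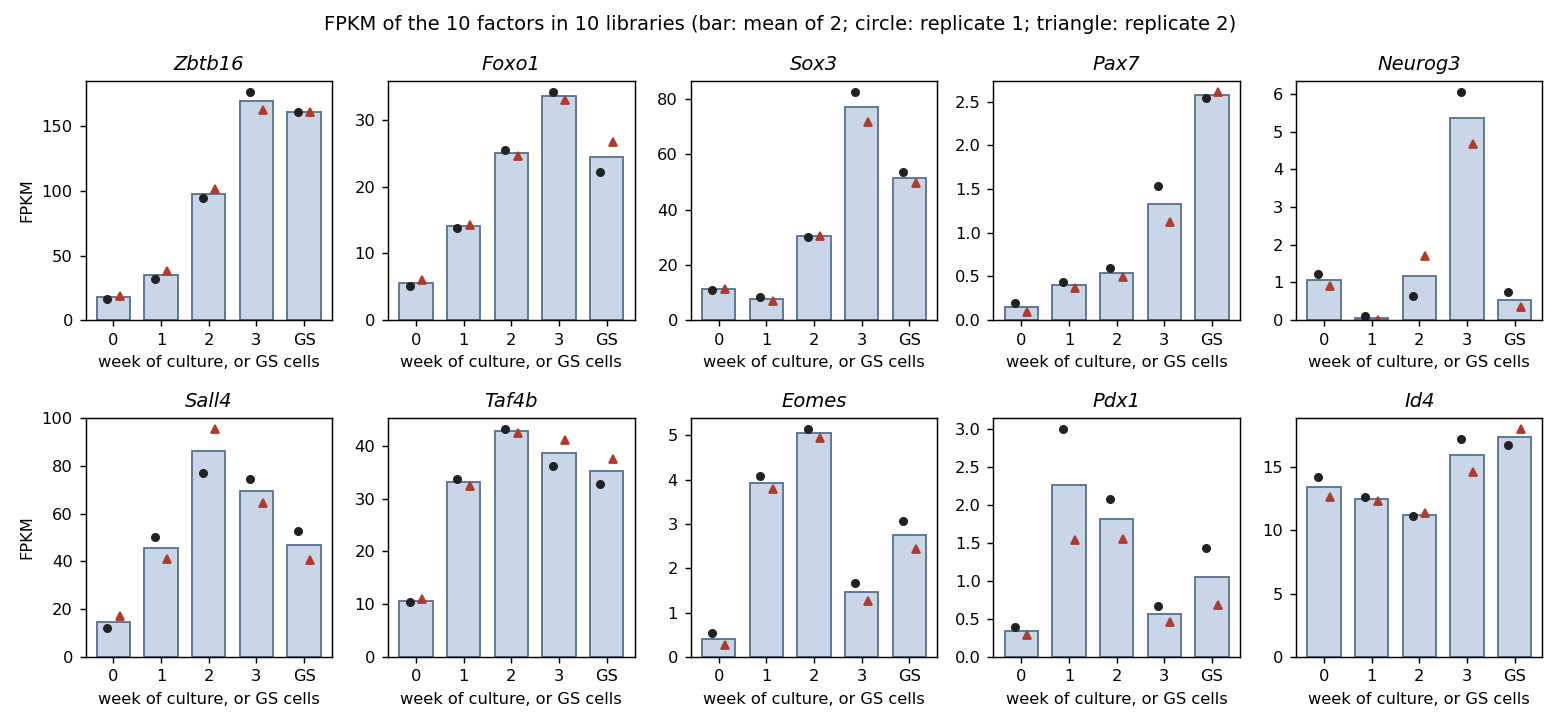
FPKM (vertical axis, a separate scale from 0 in each panel) of the 10 factors at weeks 0 to 3 and in GS cells; bars are means of 2 libraries, circles replicate 1 and triangles replicate 2. Zbtb16 climbs from 17.6 to 169 FPKM, Neurog3 stands out at week 3 with 5.36, and Id4 stays between 11.3 and 17.4.

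The promoters of 3 of these genes are shown as examples of different courses: Id4 varied least, Eomes was high early in culture, and Neurog3 was high at week 3. RefSeq (GRCm38.p6) promoter windows were read for 6 of the 10 genes, which does not mean that the others lack one. The 250 bases before the RefSeq start are printed 5′ to 3′ on the gene's strand, in lower case with matches to any of 6 motifs in capitals. The stretches are chr13:48260866-48261115 for Id4, chr9:118477939-118478188 for Eomes and chr10:62132840-62133089 for Neurog3, all on the plus strand.
Id4: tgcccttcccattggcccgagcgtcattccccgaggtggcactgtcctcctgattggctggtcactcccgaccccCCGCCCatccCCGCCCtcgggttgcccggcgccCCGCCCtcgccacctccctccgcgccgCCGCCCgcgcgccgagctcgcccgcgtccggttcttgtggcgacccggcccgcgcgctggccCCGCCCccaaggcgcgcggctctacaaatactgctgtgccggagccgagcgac
Eomes: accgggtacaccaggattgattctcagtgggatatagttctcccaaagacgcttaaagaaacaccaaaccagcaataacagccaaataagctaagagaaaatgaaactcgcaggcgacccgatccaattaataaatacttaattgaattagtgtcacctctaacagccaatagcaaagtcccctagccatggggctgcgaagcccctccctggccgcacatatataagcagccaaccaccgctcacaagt
Neurog3: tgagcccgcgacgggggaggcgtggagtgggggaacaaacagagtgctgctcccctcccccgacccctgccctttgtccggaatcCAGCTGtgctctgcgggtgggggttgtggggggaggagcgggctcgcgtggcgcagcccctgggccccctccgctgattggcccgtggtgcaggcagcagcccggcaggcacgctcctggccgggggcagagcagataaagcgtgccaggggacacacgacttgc
The motifs, searched on both strands, were the GC box GGGCGG, the E-boxes CAGCTG and CACGTG, the ETS motif CCGGAAGT, the octamer ATGCAAAT and the FOXO motif TGTTTAC. The Id4 window held 5 GC boxes, all as CCGCCC, and at least 1 GC box occurs in 32.7% of the 32851 promoter windows of the table. The Neurog3 window held the E-box CAGCTG, the kind of site that E proteins bind, from base -165 to -160 before the start, and 13% of all windows hold that motif. No match to the 6 motifs was in the Eomes window. The windows of Pax7 and Pdx1 overlap the gene bodies of GENCODE M21 and, like that of Foxo1, are not printed. That of Foxo1 held 2 GC boxes, that of Pax7 1 GC box, and that of Pdx1 the E-box CACGTG, which 6% of all windows hold. GC content was 75.6% for Id4, 71.2% for Neurog3 and 46.4% for Eomes, against a median of 52.4% over all windows. A match describes these letters and is not evidence of binding.

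Changes between groups were tested with limma on log2(FPKM + 1), and a gene was called at a Benjamini-Hochberg adjusted p under 0.05 over all genes tested. A fold change on this scale understates that of low genes. Week 1 against week 0 shows the entry into culture. Of the 10 factors 7 rose and 2 fell at week 1, where 80.3% of all genes were called, 36.3% higher and 44% lower. With quantile normalization 8 factors rose and 0 fell, since the falls of Sox3 and Neurog3 were no longer called and Id4 rose. The median log2 fold change was 1.08 over the 10 factors and -0.14 over all genes. The balance of all calls depends on the scaling here: 45.2% of them were higher, but 59.8% with quantile normalization and 51.3% with a common FPKM sum. From week 1 to week 2, 6 factors rose and none fell (0 of 10), against 55.6% of all genes called, 28.2% higher and 27.4% lower, with medians of 0.58 and 0.03. The other 4 factors had log2 fold changes of -0.18 to 0.29 in this comparison (Pdx1, Id4, Pax7 and Eomes), none of them at an unadjusted p under 0.05. Of all calls 50.7% were higher in this comparison, against 61.8% with quantile normalization and 66.2% with a common sum.

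From week 2 to week 3, 6 factors rose and 2 fell, where 21.3% of all genes were called, 10.6% higher and 10.7% lower. The medians were 0.43 over the 10 factors and 0.00050 over all genes. Between week 3 and GS cells the factors parted, with 2 higher and 3 lower in GS cells, against 22.5% of all genes called, 11.7% higher and 10.8% lower (medians -0.10 and -0.0068). Set against week 0, GS cells were higher in 8 of the 10 factors and lower in none (0 at an unadjusted p under 0.05 as well), where 80.6% of all genes were called, 34.7% higher and 45.9% lower (medians 1.62 and -0.21). Here 43.0% of all calls were higher, against 61.1% with quantile normalization and 54.1% with a common sum. In the comparisons with week 0 more than 3 in 4 of the genes tested were called, so a call there says little about the factors as a set. Consecutive comparisons share a group and are not independent.

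The remaining pairs of groups served to order the levels. At week 2, 8 factors were higher than at week 0 and 0 lower, with 79.5% of all genes called (34.1% higher, 45.4% lower). At week 3, 8 were higher than at week 0 and 0 lower (80.6% of all genes, 34.5% higher and 46.1% lower). Against week 1, 7 were higher and 2 lower at week 3 (61.9% of all genes, 31.9% higher and 30% lower), and 5 were higher and 2 lower in GS cells (58.6%, 29.7% higher and 29% lower). Against week 2, GS cells were higher in 4 factors and lower in 2 (18% of all genes, 9.58% higher and 8.37% lower). The 2 factors lower against week 1 were Pdx1 and Eomes in both cases, and against week 2 Sall4 and Eomes. Eomes in GS cells against week 1 (-0.40, limma adjusted p = 0.0480) was called in 4 of 17 alternatives and was 0.0093 with quantile normalization.

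**Figure D3:**
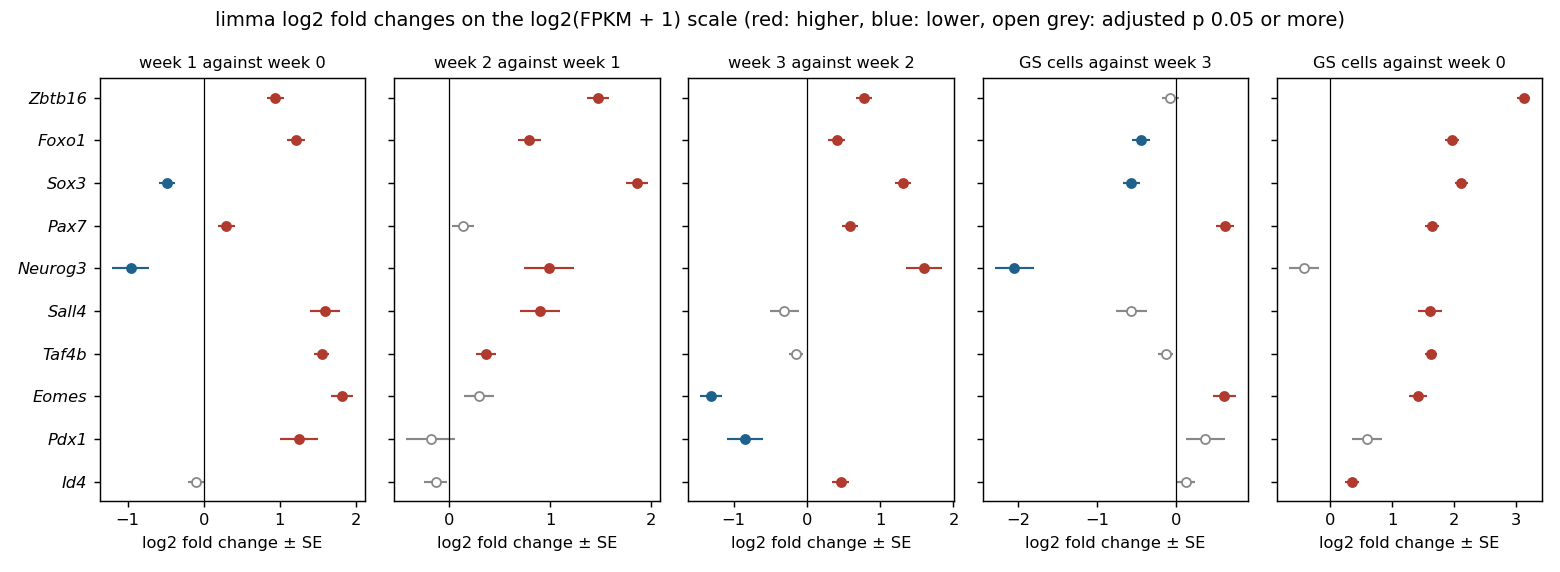
log2 fold change of each factor (horizontal axis, log2(FPKM + 1) scale) with its standard error in the 5 comparisons; red is higher, blue lower, and open grey circles had an adjusted p of 0.05 or more. Zbtb16 is red in each of the first 3 panels, and Neurog3 moves from -0.96 at week 1 to 1.60 at week 3 and -2.05 in GS cells.

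Zbtb16 (chromosome 9, 48654297 to 48836222, minus strand, GRCm38) rose at every step of the first 3 weeks and stood at a similar level in GS cells. It was at 16.2 and 19.0 FPKM in the week 0 libraries, 31.5 and 38.0 after 1 week, and 94.6 and 101 after 2. The week 3 libraries had 176 and 162 FPKM and those of GS cells 161 and 161. No group overlapped its neighbour up to week 3. The log2 fold changes by limma were 0.94 (SE 0.11, adjusted p = 6.52e-05), 1.48 (adjusted p = 1.88e-05) and 0.78 (adjusted p = 0.00265) from week to week. GS cells differed from week 3 by -0.07 (SE 0.11, limma adjusted p = 0.719). Compared with week 0, GS cells were higher by 3.13 (limma, adjusted p = 3.31e-08), 9.16 times the week 0 mean.

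Sall4 (chromosome 2, 168748332 to 168767943, minus strand), the zinc-finger partner of PLZF, peaked earlier. Its libraries were at 12.2 and 17.0 FPKM at week 0, 50.3 and 41.1 after 1 week, and 77.1 and 95.5 after 2. Week 3 had 74.5 and 64.3 FPKM, and GS cells had 52.8 and 40.7. Week 1 exceeded week 0 by 1.59 (limma, SE 0.20, adjusted p = 8.66e-05) and week 2 exceeded week 1 by 0.90 (adjusted p = 0.00497). The steps down were not called (week 3, -0.31, limma adjusted p = 0.316, and GS cells against week 3, -0.57, adjusted p = 0.0745), although rescaling to a common FPKM sum brought the last one to an adjusted p of 0.0493. GS cells lay below week 2 (limma log2 fold change -0.87, adjusted p = 0.0201), a call lost with no filter (0.0632), without week 2 replicate 2 (0.122) or without GS cells replicate 2 (0.114). GS cells and week 1 overlapped (limma adjusted p = 0.934).

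The balance of these partners differed between early and late groups. Zbtb16 FPKM was 1.32 and 1.12 times that of Sall4 at week 0, 0.627 and 0.923 times at week 1, and 1.23 and 1.06 times at week 2. The ratio reached 2.37 and 2.52 at week 3 and was 3.05 and 3.96 in the GS cells, so both later groups lay above all 6 libraries of weeks 0 to 2. The ratios are given as values, and their differences between groups were not tested.

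**Figure D4:**
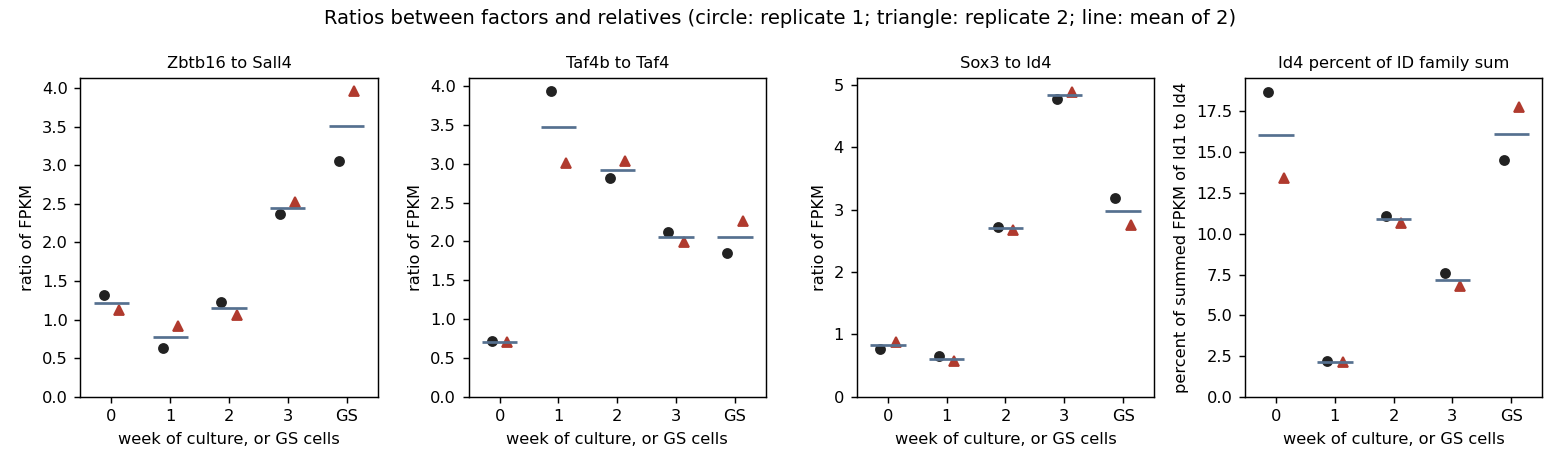
Ratios of FPKM for 3 pairs of genes, and Id4 as percent of the summed FPKM of Id1 to Id4 (vertical axes from 0), in the 5 groups; circles are replicate 1, triangles replicate 2, and lines the mean of 2. Zbtb16 to Sall4 rises from 0.627 and 0.923 at week 1 to 3.05 and 3.96 in GS cells, and the Id4 share is lowest at week 1 with 2.17% and 2.14%.

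Foxo1 (chromosome 3, 52268336 to 52353221, plus strand) rose through week 3 and stood lower in GS cells. Its values were 5.07 and 5.94 FPKM at week 0, 13.8 and 14.2 after 1 week, 25.5 and 24.6 after 2, 34.1 and 33.0 after 3, and 22.2 and 26.6 in the GS cells. Each weekly group lay above the one before without overlap. By limma, week 1 exceeded week 0 by 1.21 (adjusted p = 1.62e-05) and week 2 exceeded week 1 by 0.79 (adjusted p = 0.000605). The rise to week 3 was 0.41 (SE 0.12, adjusted p = 0.0407). That call was lost with no filter, with a common FPKM sum and without any 1 of the libraries of weeks 1, 2 or 3 (limma adjusted p 0.0503 to 0.171). GS cells lay below week 3 (-0.45, limma adjusted p = 0.0281), and this call was lost without week 3 replicate 1 (0.115) or 2 (0.0845) or without GS cells replicate 1 (0.155). GS cells and week 2 overlapped (limma adjusted p = 0.874).

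Taf4b (chromosome 18, 14783245 to 14900359, plus strand) made most of its rise in the first week. It was at 10.4 and 10.9 FPKM at week 0, 33.8 and 32.5 after 1 week, 43.2 and 42.5 after 2, 36.2 and 41.1 after 3, and 32.9 and 37.6 in the GS cells. The first step was 1.55 (limma, SE 0.098, adjusted p = 1.16e-06). The second was 0.36 (limma adjusted p = 0.0137), and it was not called without week 1 replicate 2 (0.0577) or without week 2 replicate 1 (0.0679) or 2 (0.0559). Weeks 2 and 3, week 3 and GS cells, and GS cells and week 1 were not called different (limma adjusted p 0.330, 0.391 and 0.505). Taf4, the subunit used in most tissues, was at 8.59 to 20.7 FPKM in all 10 libraries. Taf4b was 0.713 and 0.703 times as high as Taf4 at week 0, 3.94 and 3.01 times at week 1, and 1.85 to 3.04 times in the other libraries.

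Id4 (chromosome 13, 48261228 to 48266026, plus strand) varied least of the 10 in FPKM. Its libraries had 14.2 and 12.7 FPKM at week 0, 12.7 and 12.3 after 1 week, 11.1 and 11.4 after 2, 17.2 and 14.7 after 3, and 16.8 and 18.0 in the GS cells. No neighbours in the order of its 5 group means differed by limma (adjusted p 0.0949 to 0.502). Across the steps of culture, week 3 exceeded week 2 by 0.46 (limma, SE 0.11, adjusted p = 0.0238), a call lost without week 2 replicate 1 (0.113) or 2 (0.0932) or week 3 replicate 1 (0.128). The GS cell level was 0.35 above week 0 (limma, adjusted p = 0.0198), which was lost without week 0 replicate 2 (0.0868) or GS cells replicate 2 (0.0965). The size of that difference depends on the scaling, since it was 0.92 with quantile normalization (adjusted p = 0.000113) and 0.80 with a common FPKM sum (adjusted p = 0.000271). Week 3 against week 0, 0.23 and not called, was likewise 0.81 and 0.72 under these scalings and called (limma adjusted p = 0.000253 and 0.000514). The first step, -0.10 (limma adjusted p = 0.445), changed sign with the scaling, to 0.34 with quantile normalization (adjusted p = 0.0284) and 0.13 with a common FPKM sum.

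The other members of the ID family moved far more than Id4. Id1 was at 13.6 and 17.6 FPKM at week 0, 175 and 179 after 1 week, 23.2 and 26.7 after 2, 148 and 138 after 3, and 49.6 and 42.3 in the GS cells. Id2 went from 101 and 100 FPKM at week 1 to 2.91 and 2.29 at week 2 (limma log2 fold change -4.82, adjusted p = 1.48e-06), and Id3 from 296 and 282 to 62.9 and 66.5. Id2 and Id3 were highest at week 1, the group in which the fibroblast markers peaked. Id1 was high at week 3 as well, when the fibroblast markers were at 163 and 401 FPKM. The part of fibroblasts in these ID values was not tested. Id4 made up 18.7% and 13.4% of the family's summed FPKM at week 0, 2.17% and 2.14% after 1 week, 11.1% and 10.7% after 2, 7.57% and 6.77% after 3, and 14.5% and 17.8% in GS cells.

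Among the E proteins, which ID proteins bind, Tcf3 rose with Zbtb16 over the first 2 weeks. It stood at 32.2 and 39.0 FPKM at week 0, 64.9 and 64.2 at week 1 and 135 and 138 at week 2 (limma log2 fold change 1.07 from week 1 to week 2, adjusted p = 6.69e-05), and at 137 to 156 in the later libraries. Tcf4 fell by 1.43 on the log2 scale from week 1 to week 2 (limma adjusted p = 1.84e-05). None of the 3 E proteins (0 of 3 by limma, 0 also at an unadjusted p under 0.05) was called between weeks 2 and 3 or between week 3 and GS cells. Of all genes only 21.3% and 22.5% were called in these comparisons, so 0 of 3 sets the E proteins apart little.

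Sox3 (chromosome X, 60891366 to 60893430, minus strand), an early factor of progenitor spermatogonia, first dipped and then rose steeply. It was at 11.0 and 11.2 FPKM at week 0, 8.26 and 7.04 after 1 week, 30.2 and 30.6 after 2, 82.4 and 71.7 after 3, and 53.5 and 49.7 in the GS cells. All 5 groups were separate from their neighbours in level and each of these neighbours differed by limma (largest adjusted p = 0.00797). The fall at week 1 was -0.49 (limma, SE 0.11, adjusted p = 0.00261), but -0.04 with quantile normalization (adjusted p = 0.768) and -0.26 with a common sum. The rises were 1.86 to week 2 (limma adjusted p = 4.73e-06) and 1.31 to week 3 (adjusted p = 0.000244). GS cells lay below week 3 (limma log2 fold change -0.57, adjusted p = 0.00797), with adjusted p 0.0517 without week 3 replicate 1 and 0.0514 without GS cells replicate 2. Against Id4, Sox3 went from 0.652 and 0.572 times at week 1 to 4.78 and 4.89 times at week 3.

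Neurog3 (chromosome 10, 62133090 to 62134763, plus strand), a basic helix-loop-helix activator of the same progenitors, gave the sharpest excursion. Its libraries were at 1.23 and 0.896 FPKM at week 0, 0.113 and 0 after 1 week, 0.627 and 1.69 after 2, 6.04 and 4.68 after 3, and 0.744 and 0.343 in the GS cells. The week 3 libraries lay above the other 8 without overlap. Depth behind the low values was small: 0.113 FPKM stands for 0.7 to 2.5 reads depending on the transcript model, and 6.04 FPKM for 31.0 to 117.7. Week 3 exceeded week 2 by 1.60 (limma, SE 0.25, adjusted p = 0.00369) and GS cells lay below week 3 by 2.05 (limma log2 fold change -2.05, adjusted p = 0.00135). The second was called in all 17 alternatives, the first in all but the fit with only the libraries of both groups (adjusted p = 0.0719).

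The earlier steps of Neurog3 were less firm. The fall at week 1 (-0.96, limma adjusted p = 0.00639) was not called without week 0 replicate 1 (-0.85, adjusted p = 0.0636) or with quantile normalization (-0.22, adjusted p = 0.430). The rise to week 2 (0.99, limma adjusted p = 0.00934) was 0.62 without week 2 replicate 2 (adjusted p = 0.0512) and not called with only the libraries of both groups (0.0720). With a pseudocount of 0.1 these steps were -2.98 and 2.97, so their size rests on the pseudocount. Weeks 0 and 2 (limma adjusted p = 0.926), week 0 and GS cells (0.142), and GS cells and week 1 (0.0937) were not called different. With quantile normalization week 2 exceeded week 0 by 0.97 (limma adjusted p = 0.00549). GS cells against week 1 was called in 5 of 17 alternatives, among them a pseudocount of 0.1 (2.07, limma adjusted p = 0.0129).

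Genes of differentiating spermatogonia were set beside Sox3 and Neurog3. Stra8, the retinoic acid target that precedes meiosis, was at 46.1 and 58.3 FPKM at week 0, 18.3 and 16.2 after 1 week, 40.5 and 35.6 after 2, 102 and 105 after 3, and 63.7 and 55.8 in the GS cells. Like Neurog3 it was lowest at week 1 and highest at week 3. Of 8 genes of this list 1 rose and 4 fell at week 1, 7 rose at week 2, and 5 rose and 3 fell at week 3. In GS cells against week 3, 3 were higher and 5 lower. The shares of all genes called were 80.3%, 55.6%, 21.3% and 22.5% in these comparisons, so the 5 of 8 called at week 1 were fewer than over all genes. The 7 of 8 called at week 2 were more, as were all 8 at week 3 and all 8 in GS cells against week 3. Kit, the receptor of differentiating spermatogonia, had 20.5 and 18.9 FPKM at week 3, and GS cells had 34.5 and 34.9 (limma log2 fold change 0.79, adjusted p = 0.00192), so it was higher where Neurog3 was lower. Dmrtb1 fell from 582 and 561 FPKM at week 0 to 1.92 and 2.29 at week 1 (limma, -7.53, adjusted p = 8.38e-10), beside the spermatid markers.

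Eomes (chromosome 9, 118478212 to 118486132, plus strand), a T-box factor, was high in the first 2 weeks of culture. It had 0.533 and 0.273 FPKM at week 0, 4.08 and 3.78 after 1 week, 5.14 and 4.95 after 2, 1.66 and 1.26 after 3, and 3.07 and 2.44 in the GS cells. The rise at week 1 was 1.82 (limma, SE 0.15, adjusted p = 5.95e-06) and the fall at week 3 was -1.30 (SE 0.15, adjusted p = 0.00102), and both were called in all 17 alternatives. Week 2 against week 1, 0.29, was not called (limma adjusted p = 0.129), but passed with quantile normalization (0.61, adjusted p = 0.00498) and with a common sum (0.55, adjusted p = 0.00964). The level in GS cells was 0.61 above week 3 (limma, adjusted p = 0.0224), which was lost with a pseudocount of 0.1 (0.0711), without week 3 replicate 2 (0.116) and without GS cells replicate 1 (0.126).

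Eomes is also a factor of T and NK cells, so 6 markers of these were read. They summed to 8.84 and 7.93 FPKM at week 1, nearly all of it Cd3e (8.37 and 7.76), and to 1.40 and 0.809 at week 2, when Eomes was at its highest. The sums were 0.686 to 1.51 at week 0, 0.687 to 1.62 at week 3 and 3.00 to 3.68 in GS cells. Nkg7 and Ncr1 were listed at 0 in all 10 libraries, and Cd8a was at 0.14 FPKM or less. Gzma, a granule protease, went from 0.571 and 0.313 FPKM at week 3 to 2.24 and 2.29 in GS cells (limma log2 fold change 1.19, adjusted p = 0.000961), where it made up most of the sum, at the step at which Eomes rose, and its part in the Eomes values was not tested. Tbx21, the T-box relative of these lymphocytes, was at 0.24 FPKM or less.

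Pdx1 (chromosome 5, 147269959 to 147275848, plus strand), a homeobox factor, followed a similar course at a lower level. It was at 0.395 and 0.283 FPKM at week 0, 3.00 and 1.54 after 1 week, 2.08 and 1.56 after 2, 0.668 and 0.460 after 3, and 1.43 and 0.678 in the GS cells. Its replicates lay far apart at week 1 and in GS cells. These FPKM stand for 8 and 7 reads at week 0 and 98 and 48 at week 1. The rise at week 1 was 1.25 (limma, SE 0.24, adjusted p = 0.00146), called in all 17 alternatives. The fall at week 3 (-0.85, limma adjusted p = 0.0430) was lost with no filter (0.111) and without any 1 of the libraries of weeks 0, 2 or 3 (0.0924 to 0.193). GS cells against week 0 was just short of a call (0.59, limma adjusted p = 0.0509), and passed in 9 of 17 alternatives. No neighbours in the order of its means differed (limma adjusted p 0.231 to 0.562).

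The gene whose course was most like that of Pdx1 was Cdx2, the next homeobox gene of the ParaHox cluster, with Pearson r = 0.947 over the 10 libraries on the log2(FPKM + 1) scale, the highest among 15670 genes. Cdx2 lies on the same chromosome (147300805 to 147307270, minus strand, GENCODE M21), 24956 bases beyond Pdx1. Colgalt2 and Ahsa2 followed at r = 0.946 and 0.943. Cdx2 was listed at 0 in both week 0 libraries and had 1.89 and 1.43 FPKM after 1 week, 1.32 and 1.48 after 2, 0.167 and 0.309 after 3, and 1.08 and 0.593 in GS cells. With 10 libraries and so many genes, a high r is a description and has no p.

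Pax7 (chromosome 4, 139737062 to 139833528, minus strand), a paired-box factor that marks rare spermatogonia and muscle satellite cells, was highest in GS cells. It was at 0.190 and 0.0979 FPKM at week 0, 0.434 and 0.371 after 1 week, 0.593 and 0.492 after 2, 1.53 and 1.12 after 3, and 2.54 and 2.60 in the GS cells. Each group lay above the one before without overlap, but the step from week 1 to week 2 was not called (limma log2 fold change 0.14, adjusted p = 0.335). It passed only with quantile normalization (0.35, limma adjusted p = 0.0336). The limma estimate of the rise was 0.59 to week 3 (SE 0.11, adjusted p = 0.00851) and 0.62 from week 3 to GS cells (adjusted p = 0.00695). The first was not called without week 2 replicate 2 (0.0620) or week 3 replicate 1 (0.0540), and neither was called with only the libraries of both groups (0.0684 and 0.0754). The first step of culture, 0.29 (limma adjusted p = 0.0375), rests on 1.9 to 11.1 reads in a week 0 library, and was not called when week 0 replicate 2 or any 1 library of weeks 1 and 2 or of GS cells was left out (0.0535 to 0.119). The level in GS cells was 1.64 above week 0 (limma, adjusted p = 1.81e-06), a call kept in all 17 alternatives. Of 3 muscle progenitor markers, Myod1 and Myf5 were at 0.10 FPKM or less in all 10 libraries. The third, Des (desmin, a muscle filament), had 22.2 and 27.0 FPKM at week 0, 2.08 and 3.02 after 1 week, 1.23 and 2.02 after 2, 4.21 and 2.84 after 3, and 5.29 and 5.45 in the GS cells. Des in GS cells exceeded week 2 (limma, 1.29, adjusted p = 0.00727), as Pax7 did, and its part in the Pax7 values was not tested. Its rise from week 2 to week 3 (0.78, limma adjusted p = 0.0402) was called in 9 of 18 alternatives.

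For the other factors, too, the 3 genes of the nearest course were taken over the same 10 libraries, among which weeks 0 and 1 hold other cell mixtures. They were Dppa3, Pip5k1c and Pdcd11 for Zbtb16 (r = 0.995 to 0.996), Thumpd1, C1ql1 and Melk for Sall4 (0.982 to 0.991), and Dicer1, Fbxo41 and Nmt2 for Foxo1 (0.995 to 0.997). Taf4b was nearest to Fam49a, Ctps and Nkrf (0.994 to 0.995), Sox3 to Klhl12, B3gntl1 and Rab11fip4 (0.991 to 0.997), and Pax7 to Btbd17, Rabl3 and Arsi (0.974 to 0.986). Pclaf (0.981) and Ankrd34a (0.972) were among the nearest to Eomes, and Neurog3 was nearest to Kif5a, Eef2 and Pou2f2 (0.965 to 0.977). Id4 had the lowest such values, with Src, Rbfox1 and Heg1 at 0.923 to 0.946. Among the factors themselves r ran from 0.951 for Zbtb16 and Foxo1 and 0.945 for Sall4 and Taf4b to -0.513 for Pdx1 and Neurog3.

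Other genes of undifferentiated spermatogonia were read from a list of 17. At week 1, 15 rose and 1 fell (median 1.67), and at week 2, 12 rose and 1 fell (0.75). At week 3, 5 rose and 7 fell (-0.26), and in GS cells against week 3, 6 were higher and none lower (0.22, 0 lower by adjusted p and 2 at an unadjusted p under 0.05). Of all genes tested, week 1 had 36.3% called higher and 44% lower, week 2 had 28.2% higher and 27.4% lower, and week 3 had 10.6% higher and 10.7% lower. GS cells against week 3 had 11.7% higher and 10.8% lower. The highest group of the 17 genes was week 2 for 7, week 3 for 4 and GS cells for 4. The largest falls at week 3 were those of T (brachyury, a T-box factor, limma log2 fold change -2.85, adjusted p = 0.000243), Bcl6b (-2.26, adjusted p = 7.08e-05) and Lhx1 (-1.94, adjusted p = 0.000186), factors known to respond to GDNF signalling in cultured germline stem cells.

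T took a course like that of its relative Eomes. It was at 0.42 and 1.14 FPKM at week 0, 21.5 and 18.9 after 1 week, 18.8 and 20.4 after 2, 2.06 and 1.68 after 3, and 5.65 and 3.83 in the GS cells. Gfra1, the GDNF receptor that marks the stem-like fraction, stood at 51.0 and 50.4 FPKM at week 2 and at 26.4 and 28.1 at week 3, when Sox3 and Neurog3 were highest. The list did not move as 1 at this step, with 5 of its 17 genes called higher and 7 lower. Nanos3 rose from 72.1 and 81.6 to 147 and 154 FPKM, and Rarg from 10.8 and 11.3 to 39.5 and 35.3. Nanos3 and Pou5f1 were among the genes that, like Pax7, were highest in GS cells. Dazl, a germ cell gene, was at 107 and 116 FPKM at week 0, 292 and 289 at week 1 and 420 to 581 in the later libraries, whereas Ddx4, another, was at 213 and 185 at week 0, 72.0 and 70.6 at week 1 and 101 to 156 later.

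**Figure D5:**
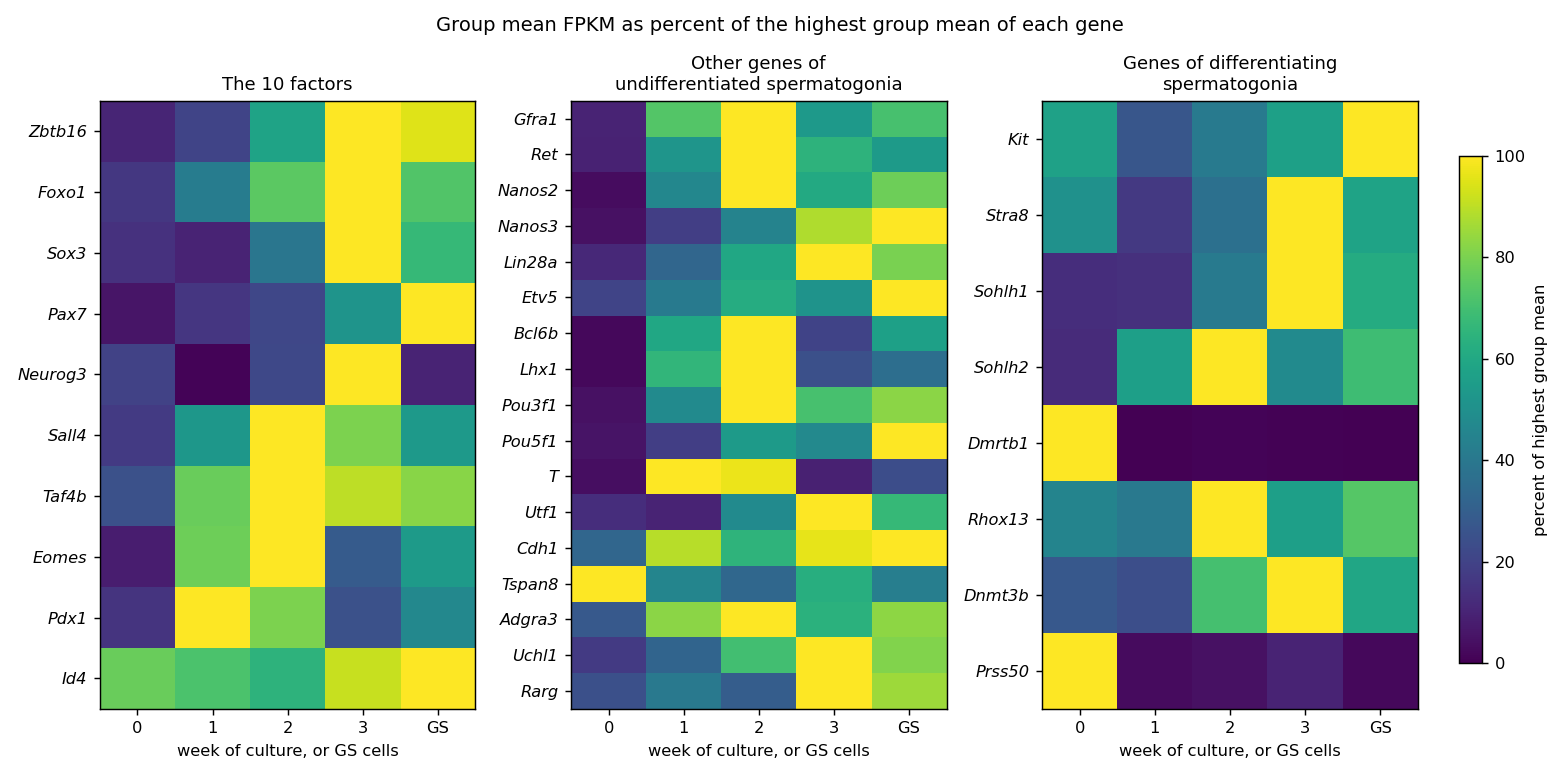
Group mean FPKM as percent of each gene's highest group mean (colour), at weeks 0 to 3 and in GS cells, for the 10 factors, 17 other genes of undifferentiated spermatogonia and 8 genes of differentiating spermatogonia. Eomes and Pdx1 share with T, Bcl6b and Lhx1 bright cells at weeks 1 and 2 and dark ones at week 3. Zbtb16, Foxo1, Sox3 and Neurog3 are brightest at week 3. So are 4 of the 17 other genes and 3 of the 8 genes of differentiating spermatogonia, Stra8 and Sohlh1 among them.

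Relatives of the factors within their own gene families, Id1, Id2 and Id3 included, gave 17 genes. Of these, 6 (Sox1, Pax3, Tbr1, Tbx21, Neurog1 and Neurog2) stayed below the filter. Sall1 rose from 2.31 and 2.55 FPKM at week 0 to 34.5 and 35.2 in GS cells (limma log2 fold change 3.39, adjusted p = 7.23e-09) and Sall3 from 2.01 and 1.63 to 21.9 and 20.7 (2.98, adjusted p = 6.44e-08), so both were highest in GS cells, where Sall4 was lower than at week 2. Foxo3 was higher than Foxo1 in all 10 libraries, with Foxo1 at 0.342 to 0.703 times its level. Sox2, the SOXB1 relative of Sox3, was at 0.10 and 0.04 FPKM at week 0, 8.55 and 6.26 at week 1 and 3.91 to 4.78 later, highest at week 1, where Sox3 was lowest.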

How the data were processed

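RNA-seq of 10 mouse libraries was analysed from a single matrix. Libraries were made with the TruSeq Stranded mRNA kit from 200 ng of TRIzol-extracted RNA, per the labels' protocols. The authors deposited FPKM values that they call normalized. The tools in the submitters' processing notes are Cufflinks 2.2.1 and Cuffdiff, HISAT2 2.1.0 and Bowtie2 2.3.4.1, with cutadapt 1.16, bcl2fastq 2.17.1.14 and the build mm10; their roles, the annotation release and the kind of normalization were not stated there. No count model was run, since FPKM values are not counts.

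The 15671 genes that reached FPKM 1 in 2 or more libraries were fitted with limma 3.58.1 in R 4.3.3 on log2(FPKM + 1), a pseudocount of 1 (5 groups together, 5 residual degrees of freedom, empirical Bayes with an intensity trend, two-sided, Benjamini-Hochberg). The script was tested on simulated data. Alternatives were pseudocounts of 0.1 and 0.5, no filter, a filter at FPKM 5, quantile normalization, a common FPKM sum, only the libraries of both groups compared, a replicate block, and leaving out each library on the same genes. A group left with a lone library is then assumed to vary like the others. Depth was read from low values of 2268 genes with a lone transcript (a fragment of 200 nucleotides assumed); 95.36% to 98.46% were whole within 0.15 of a read. Read numbers of genes with several transcripts span the shortest to the longest model. Identifiers were matched to GENCODE M21 (GRCm38, the assembly of mm10), which found 21951; gene positions come from it and promoters from RefSeq. The members and lists were chosen with earlier results of these data known. All members were named; from each other list up to 3 called genes of largest change in a comparison, 5 stage genes, and the 3 genes of nearest course to each member (1 of those of Eomes is not reported here). Relatives, Stra8 and cell type markers given beside a member were named for that relation, after their values were seen. Nanos3 and Rarg were named as genes that rose at week 3, likewise after their values were seen. The protein sequences of the factors were not used here.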

Additional observations from a re-analysis of the deposited data

How the results depend on the processing

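Of 36 calls of a factor in the 5 comparisons, 21 held in every alternative that tested them and 15 were lost in at least 1. The number of factors called was 9, 6, 8, 5 and 8 in time order with GS cells against week 0 last. A filter at FPKM 5, under which Pax7, Pdx1, Eomes and Neurog3 were not tested, gave 5 at week 1 against week 0, 4 at week 3 against week 2 and 2 for GS cells against week 3. These counts cover only the factors still tested, so they cannot be read as a drop. Under that filter 10698, 3083 and 3158 of 12973 genes were called in these comparisons. With only the libraries of both groups, 4 factors and 1880 genes were called at week 3 against week 2, and 1 factor and 1326 genes for GS cells against week 3, where all libraries gave 3339 and 3526 genes. Leaving out 1 library gave 4 to 8 factors and 1587 to 3523 genes at week 3 against week 2, and 3 to 5 factors and 1788 to 3708 genes for GS cells against week 3. With only the libraries of both groups, the calls lost were Id4, Pax7, Pdx1 and Neurog3 at week 3 against week 2, Foxo1, Pax7, Eomes and Sox3 in GS cells against week 3, Pax7 at week 1 and Neurog3 at week 2. The cause of the loss beyond fewer samples was not tested.

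The sign changed for small differences that were not called, with the exception of Eomes. Quantile normalization gave 0.34 for Id4 at week 1, 0.0195 for Id4 and 0.17 for Pdx1 at week 2 against week 1, 0.54 for Neurog3 in GS cells against week 0, -0.0116 for Sall4 and 0.0093 for Eomes in GS cells against week 1 (-0.40, adjusted p = 0.0480, called in 4 of 17 alternatives). A common FPKM sum gave 0.13 and 0.15 for Id4 at these steps and 0.0206 for Pdx1 at week 2, and a pseudocount of 0.1 gave -0.0102 for Neurog3 at week 2 against week 0. Leaving out 1 library gave -0.51 to 0.14 for Pdx1 at week 2 against week 1, -0.34 to 0.39 for Neurog3 at week 2 against week 0, and, for GS cells, -0.16 to 0.21 for Sall4 and -0.0108 to 0.18 for Taf4b against week 1 and -0.17 to 0.0848 for Foxo1 against week 2. The median of all genes at week 1 against week 0 was -0.14, 0.38 with quantile normalization and 0.08 with a common sum; it was 0.03, 0.17 and 0.24 at week 2 against week 1, and -0.21, 0.45 and 0.17 in GS cells against week 0.

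Libraries with the same number deviated together at r = -0.053 to 0.046 over the 10 pairs of groups. Such values give no sign that the numbers pair the libraries, but cannot exclude animals or dishes shared between groups. With a replicate block the factors called were 9, 6, 8, 5 and 9, the last because Pdx1 passed in GS cells against week 0 (adjusted p = 0.00854), and 12543, 8610, 3159, 3251 and 12617 genes were called. FPKM below about 1 rest on few reads, which limits the values of Pax7, Pdx1, Eomes and Neurog3 at week 0 and of Pax7 and Neurog3 at week 1. It also limits Pax7 at week 2, Neurog3 in week 2 replicate 1 and Pdx1 at week 3. In GS cells it limits Neurog3 and, in replicate 2, Pdx1.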
